A study of Homo sapiens with 17 samples.

Results

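SF3A and SF3B are the protein subcomplexes of the U2 small nuclear ribonucleoprotein, the spliceosome particle that recognises the branch point of an intron. The transcripts of 9 of their subunits were examined in Jurkat cells exposed to ILT3.Fc. They are SF3B1, SF3B2, SF3B3, SF3B4, SF3B5 and PHF5A of SF3B, and SF3A1, SF3A2 and SF3A3 of SF3A. They were taken by gene symbol, and all 9 were present among the 25548 symbols of the table and among the 12015 genes tested. SF3B3 was selected on these data, chosen by the fall of its measured FPKM at both doses and all times, so its own dose values are given as a description without a test. The question put to the data was whether the other 8 subunits, called partners here, moved with it.

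Jurkat is an established human T cell acute lymphoblastic leukaemia line. ILT3.Fc is a soluble fusion of an antibody Fc fragment with the outer domain of ILT3, an inhibitory receptor of antigen-presenting cells. Poly(A) RNA was sequenced from 17 libraries of Jurkat cells given 0, 12.5 or 25 µg/ml ILT3.Fc for 6, 12 or 24 h. The untreated (0 µg/ml) cells had 2 libraries at 6 h, 1 at 12 h and 2 at 24 h, and both other doses had 2 libraries at each time. The culture medium was RPMI-1640 with serum in every group. The labels name no control Fc protein and no other agent, and they do not say whether duplicate libraries came from separate cultures.

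In the splicing cycle, SF3B clamps the helix formed between U2 snRNA and the branch site, and SF3A links SF3B to the rest of the U2 particle. SF3B1, SF3B3, PHF5A and SF3B5 form the compact core of SF3B, in which the propeller-shaped SF3B3 is a scaffold for SF3B1. SF3B3 and SF3B5 are also found in SAGA, a transcriptional coactivator that acetylates histones.

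The libraries were alike in size. Sums of FPKM (fragments per kilobase of transcript, scaled to the mapped fragments of the library, a level per transcript length) ranged from 504363 to 557389, and relative depth ranged from 0.68 to 1 of the deepest library. Of the T cell and leukaemia markers, all 11 were present at 26.5 to 652 FPKM. Among markers of other cell types, the B cell gene CD79A was at 33.4 to 48.1 FPKM, the others reached at most 0.413 FPKM, and HBB and EPCAM were listed at 0. A pair of libraries stood apart. In replicate 1 of 12.5 µg/ml at 6 h, deviations from the mean library followed transcript length (a Spearman correlation of -0.64, over genes rather than independent samples), and in replicate 2 of 25 µg/ml at 24 h they followed GC content (0.57). Other libraries showed lesser correlations, among them -0.37 with GC content in replicate 2 of untreated cells at 24 h. With length, replicate 2 of 25 µg/ml at 6 h and replicate 1 of 12.5 and 25 µg/ml at 12 h were at 0.33 to 0.35. Sequencing lane 4 carried the 24 h libraries with the first replicate of every 6 h group, and lane 5 carried the 12 h libraries with the second.

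SF3B3 encodes the scaffold subunit of the SF3B core. At 6 h it had 58.8 and 58.9 FPKM in the untreated libraries, 46.4 and 48.3 FPKM at 12.5 µg/ml and 43.0 and 43.0 FPKM at 25 µg/ml. At 12 h it had 62.0 FPKM in the single untreated library, 49.3 and 50.5 FPKM at 12.5 µg/ml and 44.0 and 44.4 FPKM at 25 µg/ml. At 24 h it had 62.2 and 61.6 FPKM in the untreated libraries, 48.7 and 47.0 FPKM at 12.5 µg/ml and 40.7 and 40.5 FPKM at 25 µg/ml. The libraries of the 3 doses did not overlap, and every one was ordered by dose.

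Averaged over times, SF3B3 was at 42.6 ± 1.64 FPKM at 25 µg/ml (SD, n = 6) and 60.7 ± 1.70 FPKM in untreated cells (SD, n = 5). The log2 difference of FPKM + 1 was -0.51 (SE 0.020), a change of -29.6%. The lower dose gave 48.4 ± 1.51 FPKM at 12.5 µg/ml (SD, n = 6), a log2 difference from untreated cells of -0.33 (SE 0.020) and a change of -20.3%. Most of the reduction was therefore already present at the lower dose, and the higher dose differed from the lower one by a further -11.7% (log2 difference -0.18, SE 0.019). By time, the log2 differences of 25 µg/ml from untreated cells were -0.44 at 6 h, -0.48 at 12 h and -0.60 at 24 h. The lower dose gave -0.31, -0.31 and -0.37 at the same times.

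The reduction was also read within each lane, as a description, because SF3B3 was chosen on its falls in these same libraries. In lane 4 alone the log2 differences of SF3B3 from untreated cells were -0.52 at 25 µg/ml and -0.35 at 12.5 µg/ml, and in lane 5 alone they were -0.46 and -0.30. Without replicate 2 of 25 µg/ml at 24 h the difference at the higher dose was -0.51, and without replicate 1 of 12.5 µg/ml at 6 h that at the lower dose was -0.32. In bulk RNA, less of a transcript in each cell and fewer cells that carry it cannot be told apart.

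**Figure D1:**
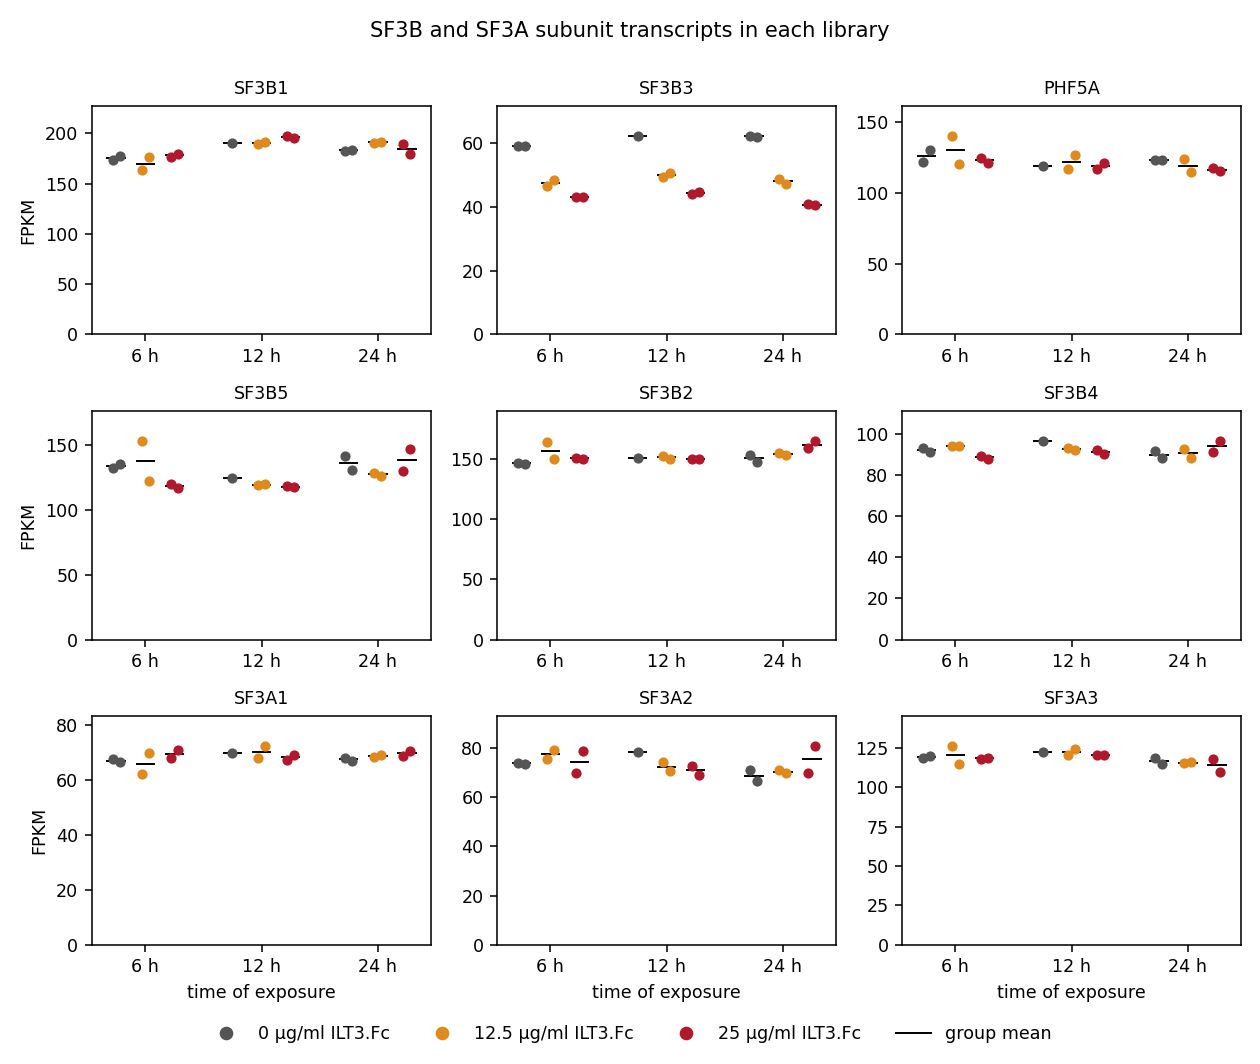
FPKM of each of the 9 subunit transcripts (vertical axes, from 0) in every library, by time of exposure and dose (points, 1 per library; lines, group means). SF3B3 separates by dose at each time, between 40.5 and 62.2 FPKM, whereas the treated and untreated points of the other 8 genes overlap over all times.

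The data also offered comparisons of time. In untreated cells SF3B3 had 62.2 and 61.6 FPKM at 24 h and 58.8 and 58.9 FPKM at 6 h. The log2 difference of 0.071 (SE 0.033) did not pass the test (limma adjusted p = 0.271). The test was limma with p-values adjusted over all 12015 genes. None of the 9 subunits was called at an adjusted p under 0.05 for 24 against 6 h in untreated cells, where 2.33% of all genes were. An unadjusted p under 0.05 was reached by none of them, against 18.7% of all genes.

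The effect of 25 µg/ml was also compared between times. For SF3B3 the log2 difference from untreated cells was -0.60 at 24 h and -0.44 at 6 h, a difference of differences of -0.15 (SE 0.046), and -0.089 with GC content and length corrected for. These values rest on the falls that chose SF3B3 and are given without a test. Of the 8 partners, limma called 0 for this difference of effects, against 3.3% of all genes, and 0 had an unadjusted p under 0.05, against 21.7% of all genes.

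No partner followed SF3B3 past the test. At 25 µg/ml over all times, limma called 0 of the 8 partners, against 9.47% of the 12015 genes. An unadjusted p under 0.05 was reached by 0 of the 8, against 25.9% of all genes. It called 0 of 8 at 12.5 µg/ml, against 0.283% of all genes, again with 0 at an unadjusted p under 0.05, against 10.9%. Between 25 and 12.5 µg/ml it called 0 of 8, against 0.283% of all genes, and 0 had an unadjusted p under 0.05, against 11.9%. Beside call shares of this size, 0 of 8 called does not set the partners apart from other genes. The partners' median log2 difference was -0.012 at 25 µg/ml, beside 0.015 over all genes, and 0.0018 at 12.5 µg/ml, beside 0.0052 over all genes.

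The intervals limit how far a partner could have moved with SF3B3. At 25 µg/ml over all times, the 95% intervals of the 8 log2 differences lay between -0.20 and 0.11. These were the lower bound for SF3B5 and the upper bound for SF3B2. Those at 12.5 µg/ml lay between -0.16, again for SF3B5, and 0.11 for PHF5A. None of them reached the value of SF3B3 at the same dose, -0.51 and -0.33. By value, the partners ran at 12.5 µg/ml from -0.040 for SF3B5 (limma adjusted p = 0.829) to 0.046 for SF3B2 (limma adjusted p = 0.584). In percent, the bounds at 25 µg/ml were -12.7% for SF3B5 and 7.56% for SF3B2, and the data do not show that changes within them are absent.

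**Figure D2:**
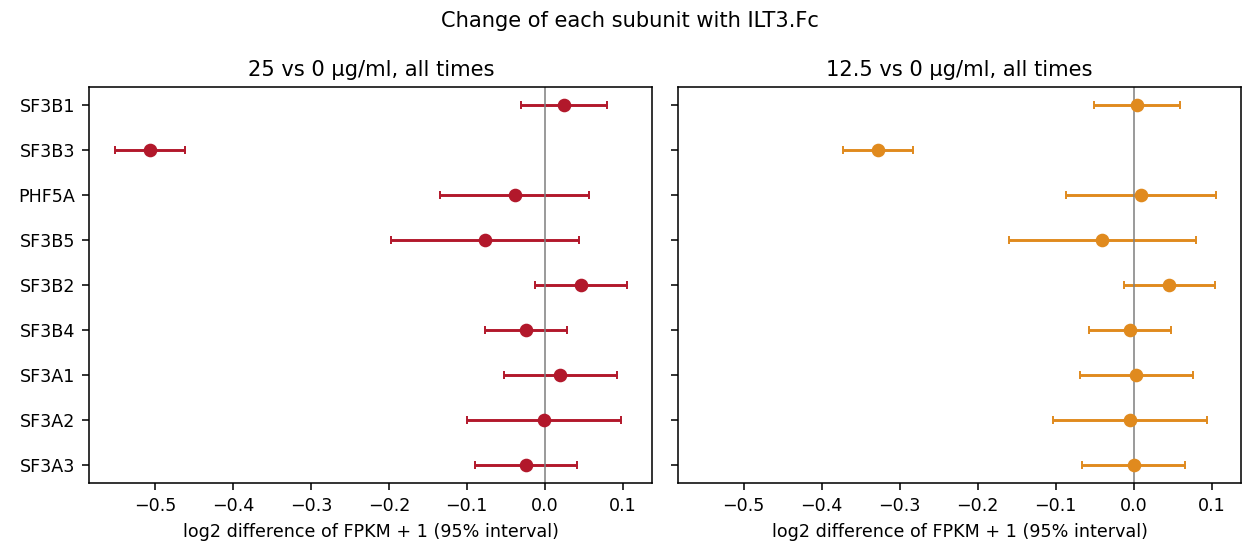
Log2 difference of FPKM + 1 from untreated cells, averaged over 6, 12 and 24 h, for the 9 subunits at 25 µg/ml (left) and 12.5 µg/ml (right), with 95% intervals of the limma fit. SF3B3 lies at -0.51 and -0.33, and every interval of the other 8 includes 0.

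Within the SF3B core, SF3B1 is the HEAT-repeat subunit that holds the branch helix and is the direct binding partner of SF3B3. It had 176, 184 and 198 FPKM (lowest, median and highest of 6) at 25 µg/ml. The corresponding values at 12.5 µg/ml were 163, 190.0 and 192 FPKM, and the 5 untreated libraries had 174, 177, 190.4, 182 and 184 FPKM. SF3B1 was thus the most abundant subunit at every dose and its dose ranges overlapped, with 2 of 6 libraries at 25 µg/ml above every untreated library. Its log2 difference at 25 µg/ml was 0.025 (SE 0.025, limma adjusted p = 0.592), opposite in sign to that of SF3B3, and -0.0024 with libraries centred on their medians.

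PHF5A is the small zinc-finger subunit that lies against SF3B1 at the branch adenosine pocket, where splicing modulator drugs bind. It had 115, 119 and 125 FPKM (lowest, median and highest of 6) at 25 µg/ml, and 121, 130.0, 119, 123 and 123 FPKM in the untreated libraries. At 25 µg/ml 3 of 6 libraries were below every untreated one, and the groups overlapped. The log2 difference was -0.039 (SE 0.043, limma adjusted p = 0.636).

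SF3B5 is the smallest core subunit and, with SF3B3, is also part of SAGA. It had 117, 119 and 147 FPKM (lowest, median and highest of 6) at 25 µg/ml, and 132, 135, 124, 142 and 130.3 FPKM in the untreated libraries. Here 4 of 6 libraries at 25 µg/ml were below every untreated library and 1 was above. Its log2 difference of -0.076 (SE 0.055, limma adjusted p = 0.422) was the lowest among the partners and did not pass the test.

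The values of SF3B5 went with the libraries that stood apart. Its highest libraries were replicate 1 of 12.5 µg/ml at 6 h, with 153 FPKM, and replicate 2 of 25 µg/ml at 24 h, with 147 FPKM. In lane 5, which holds neither, its log2 difference was -0.14 at 25 µg/ml and -0.10 at 12.5 µg/ml. In lane 4, which holds both, it was -0.063 and 0.057. SF3B5 has 1 exon and, at 693 nucleotides in GENCODE v29, the shortest transcript of the 9 subunits. In that 6 h library the log2 deviations from the mean library were 0.26 for SF3B5 and 0.20 for PHF5A (1086 nucleotides), against -0.17 for SF3B1 (6526 nucleotides) and -0.14 for SF3A1 (5143 nucleotides). The part of transcript length in these values was not tested for single genes.

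The outer SF3B subunits showed small differences. SF3B2, a proline-rich subunit that binds SF3B4 and contacts RNA near the branch site, had 149.7, 150.4 and 165 FPKM (lowest, median and highest of 6) at 25 µg/ml. The untreated libraries had 147, 145, 151, 153 and 147 FPKM, so 2 of 6 libraries at 25 µg/ml were above every untreated one. Over all times its log2 difference was 0.047 (SE 0.027, limma adjusted p = 0.30), the highest among the partners.

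SF3B2 was also the single partner with an unadjusted p under 0.05 at any one time and dose. At 24 h it had 158 and 165 FPKM at 25 µg/ml and 153 and 147 FPKM in untreated cells. The log2 difference was 0.11 (limma adjusted p = 0.113). At 6 h it had 163 and 149.7 FPKM at 12.5 µg/ml and 147 and 145 FPKM in untreated cells, a log2 difference of 0.098 (limma adjusted p = 0.637). The higher library at both points was one of those that stood apart. At 24 h the lower untreated library, replicate 2, was the one at -0.37 with GC content. The 24 h difference was called in limma after quantile normalization (0.11, adjusted p = 0.0421) and without replicate 1 or 2 of 12.5 µg/ml at 6 h (adjusted p = 0.0251 in both). The 6 h difference was called when replicate 2 of 12.5 µg/ml was left out, so that only the library following length remained (0.16, adjusted p = 0.0133).

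SF3B4, an RNA-recognition-motif protein mutated in Nager syndrome, had 88.0, 90.9 and 96.7 FPKM (lowest, median and highest of 6) at 25 µg/ml. The untreated libraries had 93.0, 91.1, 96.6, 91.5 and 88.1 FPKM, a range that nearly coincided with that of the treated ones. The log2 difference was -0.024 (SE 0.024, limma adjusted p = 0.592). SF3B14, the older symbol of SF3B6, is the remaining SF3B subunit and was added to complete the complex, outside the naming rule and after its values were seen. It had 146 ± 4.06 FPKM at 25 µg/ml (SD, n = 6) and 146 ± 4.19 FPKM in untreated cells (SD, n = 5), a log2 difference of 0.0033 (SE 0.049, limma adjusted p = 0.978).

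The 3 subunits of SF3A also stayed short of the test. SF3A1, whose ubiquitin-like domain binds a stem loop of U1 snRNA, had 67.3, 68.7 and 70.7 FPKM (lowest, median and highest of 6) at 25 µg/ml and 67.4, 66.3, 69.7, 67.9 and 67.0 FPKM in untreated cells. Its log2 difference of 0.020 (SE 0.033, limma adjusted p = 0.758) became -0.0071 with libraries centred on their medians. SF3A2, a zinc-finger subunit, had 69.2, 71.4 and 80.8 FPKM (lowest, median and highest of 6) at 25 µg/ml and 74.0, 73.5, 78.2, 71.0 and 66.5 FPKM in untreated cells. The groups of both genes overlapped, and the log2 difference of SF3A2 was -0.00097 (SE 0.045, limma adjusted p = 0.993), which turned to 0.068 without the 12 h libraries. SF3A3, the subunit that contacts both the U2 core and SF3B, had 109.7, 119 and 120.4 FPKM (lowest, median and highest of 6) at 25 µg/ml and 119, 120.1, 123, 118 and 115 FPKM in untreated cells. Its log2 difference was -0.024 (SE 0.030, limma adjusted p = 0.679).

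For a pair of SF3A genes the reads have a second possible source. In GENCODE v29, SF3A2 overlaps PLEKHJ1 and SF3A1 overlaps CCDC157 on opposite strands. Whether counting used strand is not given in the sources used here, and without strand the reads of the overlapping parts cannot be told apart. At 24 h, where 16.5% of all genes were called, PLEKHJ1 rose by 0.21 (limma adjusted p = 0.0476) and CCDC157 by 0.34 (limma adjusted p = 0.0328) on the log2 scale with 25 µg/ml. The differences of SF3A2 and SF3A1 in the same comparison were 0.13 (adjusted p = 0.25) and 0.044 (adjusted p = 0.605). Over all times PLEKHJ1 was at 0.094 (limma adjusted p = 0.173) and CCDC157 at 0.054 (limma adjusted p = 0.621). CCDC157 was low, with 1.29 and 1.40 FPKM in the treated and 0.889 and 0.815 FPKM in the untreated libraries at 24 h. Its untreated libraries at 6 h had 1.43 and 1.37 FPKM.

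Taken time by time, limma called 0 of 8 partners in each of the 6 comparisons with untreated cells. For 25 µg/ml the share of all genes called was 0.225% at 6 h, 0.0499% at 12 h and 16.5% at 24 h. The partners with an unadjusted p under 0.05 numbered 0, 0 and 1, against 10.3%, 8.61% and 32.2% of all genes. For 12.5 µg/ml the shares called were 0.025% at 6 h, 0.0416% at 12 h and 0.117% at 24 h. There, 1, 0 and 0 partners had an unadjusted p under 0.05, against 7.65%, 3.56% and 9.71% of all genes. Beside such call shares, 0 of 8 called does not set the partners apart from other genes. At 24 h and 25 µg/ml, the comparison with the most genes called, the 8 partners lay between -0.080 for PHF5A and 0.13 for SF3A2 on the log2 scale. The widest intervals were at 12 h, where there was 1 untreated library, and the lowest bound there for 25 µg/ml was -0.33, for SF3A2. At 6 h the lowest was -0.37, for SF3B5, and SF3B3 itself was at -0.44 at that time. For 12.5 µg/ml at 12 h the lowest bound, for SF3A2, was -0.307 beside -0.308 for SF3B3. That interval nearly reached the value of SF3B3.

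Overlap of single libraries was also counted, without a model. At 25 µg/ml 5.29% of all genes had every treated library below or above every untreated library, and 0 of the 8 partners did. For 12.5 µg/ml the share was 1.22% of all genes and again 0 of the 8 partners. At shares this small, 0 of 8 does not set the partners apart from other genes. Within each lane, limma called 0 of 8 partners at either dose, where few genes were called at all: 0.35% of all genes in lane 4 and 0.0666% in lane 5 at 25 µg/ml, and 0.566% and 0.141% at 12.5 µg/ml. Within a lane some groups held a single library, so the partners are described there by size. SF3B4 at 25 µg/ml was at 0.0040 in lane 4 and -0.066 in lane 5 on the log2 scale. For 12.5 µg/ml the partners ran between -0.047 for SF3A1 and 0.094 for SF3B2 in lane 4. In lane 5 they ran between -0.10 for SF3B5 and 0.041 for SF3A1. Across the 8 partners, the log2 differences at 25 µg/ml ran between -0.063 for SF3B5 and 0.072 for SF3B2 in lane 4, and between -0.14 for SF3B5 and 0.031 for SF3B1 in lane 5.

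Because FPKM is per length, the 9 transcripts can be set in order of FPKM. This order depends on the transcript lengths used for FPKM, which no source used here gives. Over all 17 libraries, SF3B1 averaged 184 ± 9.05 FPKM (SD, n = 17), SF3B2 152 ± 5.43 FPKM and SF3B5 128 ± 10.8 FPKM. PHF5A averaged 122 ± 6.27 FPKM, SF3A3 119 ± 3.91 FPKM and SF3B4 91.9 ± 2.64 FPKM. SF3A2 averaged 73.2 ± 4.12 FPKM, SF3A1 68.3 ± 2.26 FPKM and SF3B3 50.0 ± 7.72 FPKM. SF3B3 was the lowest of the 9 in every library, untreated ones included. SF3B5, PHF5A and SF3A3 were neighbours within their spread: SF3B5 exceeded PHF5A in 13 of 17 libraries and PHF5A exceeded SF3A3 in 12 of 17. SF3A2 exceeded SF3A1 in 15 of 17 libraries. The coefficient of variation over libraries was 2.87% to 8.42% for the partners and 15.5% for SF3B3.

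The balance between subunits therefore differed by dose. SF3B3 stood at 35.8% to 40.9% of the geometric mean of its 8 partners in the same library at 25 µg/ml, against 53.2% to 57.1% in untreated cells. With 12.5 µg/ml it stood at 40.7% to 45.4%. Both treated groups lay below every untreated library, and the 25 and 12.5 µg/ml groups met at the library of 12.5 µg/ml that followed length. Relative to SF3B1 alone, SF3B3 stood at 21.6% to 24.4% at 25 µg/ml, 24.5% to 28.4% at 12.5 µg/ml and 32.6% to 34.1% in untreated cells. A ratio within a library cancels the scaling of that library, but its level still depends on the transcript lengths used for FPKM. On the log2 scale, SF3B3 minus the mean of its partners was 0.50 lower at 25 µg/ml than in untreated cells (difference -0.50, given without a test because it rests on SF3B3).

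**Figure D3:**
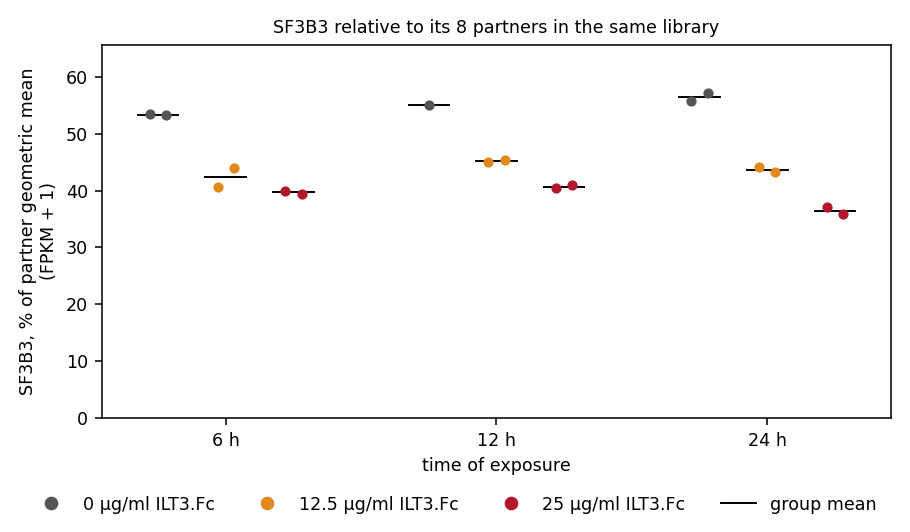
SF3B3 as a percentage of the geometric mean of its 8 partners in the same library (FPKM + 1, vertical axis from 0), by time and dose (points, libraries; lines, group means). Untreated libraries lie at 53.2% to 57.1%, those at 12.5 µg/ml at 40.7% to 45.4% and those at 25 µg/ml at 35.8% to 40.9%.

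Other spliceosome genes were examined by list, and most lists held few genes that passed the test. For 25 µg/ml over all times, limma called 3 of 19 other U2 and U2-associated genes, 0 of 7 Sm ring genes, 1 of 8 U1 genes and 0 of 21 tri-snRNP genes. It called 1 of 21 genes of the PRP19 complex and catalytic step and 0 of 9 minor spliceosome genes. Genes with an unadjusted p under 0.05 numbered 7 of 19 in the other U2 list, 0 of 7 in the Sm ring and 1 of 8 in U1. They numbered 3 of 21 in the tri-snRNP, 5 of 21 in the PRP19 list and 2 of 9 in the minor spliceosome. Over all genes the share with such a p was 25.9%. The counts of calls stand beside the 9.47% of all genes called, which split into 657 higher and 481 lower, or 393 higher and 765 lower with libraries centred on their medians. The 5 called splicing genes were lower. The median log2 difference was -0.0089 for the other U2 genes, -0.0088 for the Sm ring, -0.037 for U1, 0.0051 for the tri-snRNP, -0.011 for the PRP19 list and 0.040 for the minor spliceosome, beside 0.015 over all genes. For 12.5 µg/ml limma called 1 gene of all these lists, the helicase DHX15, and 2 other U2, 0 Sm, 1 U1, 3 tri-snRNP, 0 PRP19 and 2 minor spliceosome genes had an unadjusted p under 0.05. Over all genes these shares were 0.283% called and 10.9% with an unadjusted p under 0.05.

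DHX15, a DEAH-box helicase that travels with U2 and takes spliceosomes apart, changed most. It had 130.0, 149 and 160.0 FPKM (lowest, median and highest of 6) at 25 µg/ml, and 178, 175, 180.1, 176 and 177 FPKM in untreated cells. At 12.5 µg/ml it had 151, 159 and 164 FPKM, and every treated library of either dose was below every untreated one. It fell by 0.27 on the log2 scale at 25 µg/ml (log2 difference -0.27, SE 0.024, limma adjusted p = 0.000167) and by 0.17 at 12.5 µg/ml (-0.17, SE 0.024, adjusted p = 0.0276). Within lane 4 the difference at 25 µg/ml was -0.27 (adjusted p = 0.0853) and within lane 5 it was -0.22 (adjusted p = 0.13). The call at 12.5 µg/ml did not hold without the 24 h libraries (-0.16, adjusted p = 0.401) or without the 12 h libraries (-0.17, adjusted p = 0.154).

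U2AF2, the large subunit of the factor that binds the polypyrimidine tract ahead of U2, had 131, 138 and 143 FPKM (lowest, median and highest of 6) at 25 µg/ml. The untreated libraries had 152, 152, 161, 150.5 and 141 FPKM, and 3 of 6 treated libraries were below all of them. It fell by 0.15 on the log2 scale (log2 difference -0.15, SE 0.026, limma adjusted p = 0.00718). Within the lanes it was at -0.12 (adjusted p = 0.25) and -0.20 (adjusted p = 0.12), and without the 12 h libraries it was at -0.13 (adjusted p = 0.0692).

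SUGP1, a G-patch protein that binds SF3B1 and activates DHX15, was at 21.0 ± 0.863 FPKM at 25 µg/ml (SD, n = 6) and 22.7 ± 0.465 FPKM in untreated cells (SD, n = 5). It fell by 0.11 on the log2 scale (log2 difference -0.11, SE 0.030, limma adjusted p = 0.0469), a call that stood close to the threshold and was lost in 13 of 16 fits that left out 1 library. Without the 12 h libraries its difference was -0.071 (adjusted p = 0.284), and within lanes 4 and 5 it was -0.079 (adjusted p = 0.363) and -0.11 (adjusted p = 0.246).

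Of the U1 genes, LUC7L2, a factor that shapes the choice of 5′ splice sites, was at 83.9 ± 2.70 FPKM at 25 µg/ml (SD, n = 6) and 88.7 ± 1.60 FPKM in untreated cells (SD, n = 5). Every library at 25 µg/ml was below every untreated one, and it fell by 0.085 on the log2 scale (log2 difference -0.085, SE 0.020, limma adjusted p = 0.0252). SNRNP70, the U1 protein that binds the first stem loop of U1 RNA, was at -0.055 (adjusted p = 0.426) and LUC7L3 at -0.036 (adjusted p = 0.447). In the PRP19 list, CRNKL1, a helical-repeat subunit of the activated spliceosome, was at 21.1 ± 1.07 FPKM at 25 µg/ml (SD, n = 6) and 23.1 ± 0.123 FPKM in untreated cells (SD, n = 5). It fell by 0.13 on the log2 scale (log2 difference -0.13, SE 0.030, limma adjusted p = 0.0232). Neither gene was called within a lane: LUC7L2 was at -0.084 and -0.073 in lanes 4 and 5 (adjusted p = 0.248 and 0.192) and CRNKL1 at -0.15 and -0.094 (adjusted p = 0.161 and 0.423). Of the 16 fits that left out 1 library, 8 lost the call of LUC7L2 and 7 that of CRNKL1.

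The genes closest to the threshold elsewhere did not pass it. Of the Sm ring, the protein ring shared by spliceosomal particles, SNRPG was at -0.060, SNRPD1 at -0.050 and SNRPB at 0.019 on the log2 scale (limma adjusted p = 0.39, 0.532 and 0.814). Of the tri-snRNP, LSM4 was at -0.12, SART1 at 0.10 and PRPF3 at 0.047 (limma adjusted p = 0.0847, 0.156 and 0.187). SYF2 was at -0.099 and CWC22 at -0.078 in the PRP19 list (limma adjusted p = 0.12 and 0.158). In the minor spliceosome, which also uses SF3B, ZRSR2 was at 0.12, SNRNP35 at 0.15 and ZMAT5 at -0.12 (limma adjusted p = 0.0928, 0.151 and 0.351).

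SF3B3 has a second complex and structural relatives, and these were listed too. Of 19 other SAGA genes limma called 1 at 25 µg/ml, against 9.47% of all genes. The list median was 0.023 on the log2 scale, beside 0.015 over all genes. At 12.5 µg/ml limma called 0, against 0.283% of all genes, and 1 had an unadjusted p under 0.05, against 10.9%. The called gene was KAT2A, the histone acetyltransferase of SAGA, at 41.1 ± 3.31 FPKM at 25 µg/ml (SD, n = 6) and 36.6 ± 2.72 FPKM in untreated cells (SD, n = 5). It rose by 0.16 on the log2 scale, with an SE of 0.041 and a limma adjusted p of 0.0347, opposite in sign to SF3B3. The call was lost in 10 of 16 fits that left out 1 library. Without the 24 h libraries the difference was 0.066 (limma adjusted p = 0.451), and in lane 5, which holds no 24 h library, it was 0.063 (adjusted p = 0.311), against 0.17 in lane 4 (adjusted p = 0.312). TAF10 and FAM48A, the older symbol of SUPT20H, were at 0.10 and 0.070 (limma adjusted p = 0.215 and 0.151). DDB1 and CPSF1, which share the propeller fold of SF3B3 and work in DNA repair and in the cleavage of pre-mRNA ends, were at -0.0097 and 0.10 (limma adjusted p = 0.833 and 0.112).

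**Figure D4:**
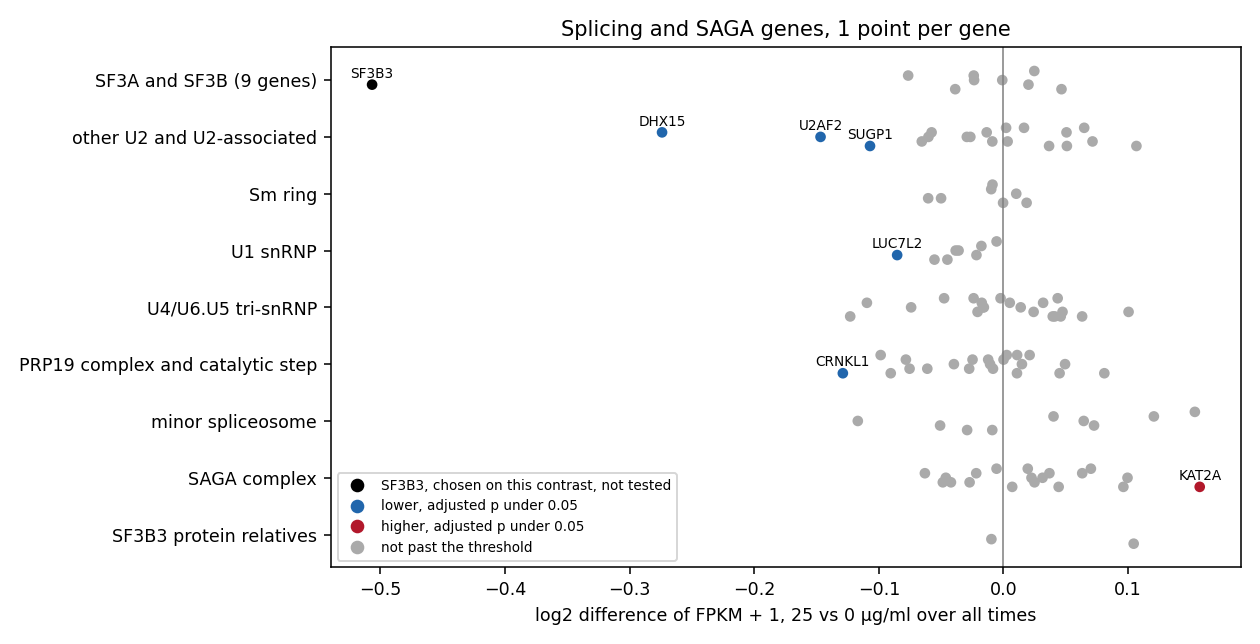
Log2 difference of FPKM + 1, 25 against 0 µg/ml over all times (horizontal axis), for the genes of each list (1 point per gene; blue and red, lower and higher at a limma adjusted p under 0.05; grey, not past it; black, SF3B3, not tested). The partners lie between -0.076 and 0.047, SF3B3 at -0.51 and DHX15 at -0.27.

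SF3B3 lies on chromosome 16, and the other 8 genes lie on chromosomes 1, 2, 6, 11, 19 and 22, so no partner is its neighbour. Its nearest gene is COG4, a subunit of a Golgi tethering complex, which runs in the opposite direction. In GENCODE v29 (GRCh38) their nearest coding transcript starts are 223 bases apart. The promoter window of COG4 in the RefSeq table (GRCh38.p14, minus strand, chr16:70523505-70523804), which runs from 250 bases before the COG4 start to 50 bases after it, is printed because it spans the stretch between both genes and holds 2 of the 6 annotated coding starts of SF3B3, at bases 14 and 17 counted from its 5′ end. Capitals mark the motifs described next.

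COG4 promoter window: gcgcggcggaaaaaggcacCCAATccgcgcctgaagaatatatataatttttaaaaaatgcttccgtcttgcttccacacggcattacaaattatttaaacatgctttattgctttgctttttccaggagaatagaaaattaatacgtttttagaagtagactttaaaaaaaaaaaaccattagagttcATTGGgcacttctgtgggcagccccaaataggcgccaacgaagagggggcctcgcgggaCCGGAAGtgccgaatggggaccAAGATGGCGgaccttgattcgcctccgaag

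The motifs were chosen after the sequence was seen and were searched on both strands. CCAAT, the CCAAT box, begins at base 20 and, on the opposite strand, at base 190. CCGGAAG, an ETS family motif, begins at base 249, and AAGATGGCG, a YY1 motif, begins at base 271. None overlaps another. Of the 35116 promoters of the table, 34.6% hold CCAAT, 10.3% hold CCGGAAG and 1.75% hold AAGATGGCG. Among the 7 partner genes with an entry, CCAAT occurs in SF3B5, CCGGAAG in SF3A1, SF3A2, SF3A3, SF3B2 and SF3B4, and AAGATGGCG in SF3A1 and SF3B2. Partners were counted by gene, if any of its promoters matched, and the shares by promoter, so the counts and shares are not directly comparable. These matches describe the letters of the windows. SF3B3 and PHF5A have no entry among these promoters and were not searched.

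COG4 was measured beside SF3B3. At 6 h it had 19.4 and 19.9 FPKM in untreated cells, 18.3 and 17.7 FPKM at 12.5 µg/ml and 16.5 and 16.0 FPKM at 25 µg/ml. At 12 h it had 18.3 FPKM in the untreated library, 17.7 and 18.3 FPKM at 12.5 µg/ml and 16.8 and 18.2 FPKM at 25 µg/ml, and at 24 h it had 19.2 and 17.4 FPKM, 18.8 and 17.7 FPKM, and 16.4 and 17.9 FPKM at 0, 12.5 and 25 µg/ml. The doses were separate at 6 h, for which no share over all genes is given, and treated and untreated libraries overlapped at 24 h. Over all times COG4 fell by 0.14 on the log2 scale at 25 µg/ml (log2 difference -0.14, SE 0.038, limma adjusted p = 0.0452), and its difference at 12.5 µg/ml was -0.049 (adjusted p = 0.683).

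The call of COG4 was close to the threshold, and 11 of 16 fits that left out 1 library lost it. Within lanes 4 and 5 its log2 differences at 25 µg/ml were -0.15 (limma adjusted p = 0.296) and -0.18 (limma adjusted p = 0.183). By time it was at -0.26 at 6 h (adjusted p = 0.159) and -0.085 at 24 h (adjusted p = 0.365), and this difference between times did not pass the test (0.18, adjusted p = 0.261). IL34, a cytokine gene on the other side of SF3B3, was at 0 to 0.033 FPKM.

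**Figure D5:**
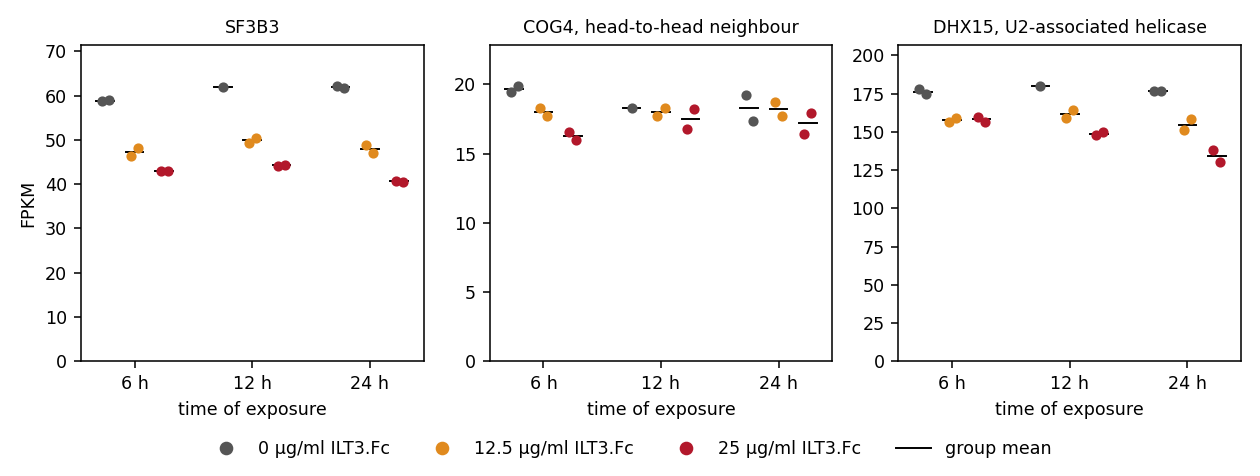
FPKM (vertical axes, from 0) of SF3B3, its head-to-head neighbour COG4 and the helicase DHX15 in every library, by time and dose (points, libraries; lines, group means). COG4 spans 16.0 to 18.2 FPKM at 25 µg/ml and 17.4 to 19.9 FPKM in untreated cells, and every treated library of DHX15 lies below every untreated one.

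The genes whose profile over the 17 libraries was most like that of SF3B3 were sought by the root mean square difference of mean-centred log2 values among 12014 genes. The closest were HYAL3, a hyaluronidase-family gene (0.096), CENPA, the centromeric histone (0.097), and HMMR, a spindle-associated protein (0.097). TOP2A, the mitotic topoisomerase (0.099), NDUFS1, a subunit of respiratory complex I (0.10), and FAM83D, a spindle protein (0.10), came next. A flat profile would score 0.207, and 2580 genes came closer than that. The partners scored 0.202 for PHF5A, at rank 2149, to 0.236 for SF3B2, at rank 6226, and COG4 scored 0.166 at rank 308. Likeness was measured on values that chose SF3B3, so it is a description.

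Levels of these genes show what the likeness consists of. HMMR was at 39.2 ± 5.01 FPKM at 25 µg/ml, 47.3 ± 2.48 FPKM at 12.5 µg/ml (SD, n = 6 each) and 56.2 ± 2.61 FPKM in untreated cells (SD, n = 5). NDUFS1 was at 38.2 ± 1.31 FPKM, 41.2 ± 1.53 FPKM and 46.7 ± 1.04 FPKM in the same groups. For both genes every treated library lay below every untreated one, as it did for TOP2A and HYAL3. Over all genes, 5.29% at 25 µg/ml and 1.22% at 12.5 µg/ml were separate in either direction. These genes were picked for likeness to SF3B3, so their separation partly follows from the choice. CENPA and FAM83D were less separate, with all 6 libraries at 25 µg/ml but 4 of 6 at 12.5 µg/ml below every untreated library. HYAL3 was low throughout, at 3.17 ± 0.293 FPKM, 3.74 ± 0.276 FPKM and 4.86 ± 0.388 FPKM in those groups.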

How the data were processed

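Poly(A) RNA of 17 Jurkat libraries was sequenced after TruSeq preparation, per the labels' protocols. The authors deposited 1 table of FPKM values, with a column for each library. TopHat2 2.1.0 is named in the submitters' processing notes. No source used here gives the quantifier, strand setting, annotation or genome build, and absolute depth is unknown. Genes whose mean FPKM was 1 or more (12015) were tested on log2(FPKM + 1), a scale that understates the change of low genes.

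The model, fitted in limma 3.58.1 under R 4.3.3, had a mean for every one of 9 dose and time groups (8 residual and 3 prior degrees of freedom, variance trend). The single untreated 12 h library is thereby assumed to vary like the rest. Tests were two-sided, with Benjamini-Hochberg adjustment over all genes tested. Separate cultures are not stated, so p-values measure only the variation of these samples, possibly technical. Relative depth came from the smallest values of 6620 genes with a mean FPKM under 0.3 (tolerance 0.03, log2). Fits were tested on simulated data in which 200 genes were changed at 25 µg/ml. Over all times, 65.4% of changes of 0.25 and 92.8% of changes of 0.5 (log2) were called. For changes of 0.25 the share called was 25.7% at 6 h, 13.3% at 12 h and 28.6% at 24 h. Members, lists and tests were chosen with earlier results of these data known. Beside all 9 members, up to 3 genes per list with the smallest p at 25 µg/ml, any called list gene, the 6 genes most like SF3B3 and its neighbours were named.

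GENCODE v29 supplied GC content and length for 11121 genes (92.6%). LSM8 was listed but is not analysed here. Alternatives changed the pseudocount, filter, scaling, GC content and length, variance trend, lane, replicate block and the libraries used.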

Additional observations from a re-analysis of the deposited data

How the results depend on the processing

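Across 29 alternatives, no partner was called over all times. SF3B3 kept its sign at both doses, a description because it was chosen on its falls in the same libraries. SF3B3 at 25 against 0 µg/ml moved by more than its spread to -0.534 with libraries centred on their medians, -0.529 corrected for GC content and length, -0.463 in lane 5 and -0.462 without 24 h. With 12.5 µg/ml it moved to -0.298 with that correction, -0.350 in lane 4 and -0.296 in lane 5. SF3B3 minus its partners moved to -0.436 in lane 5 and -0.432 without 24 h.

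Partner values near 0 changed sign, and the cause was not tested. At 25 µg/ml these were SF3B1 (centred -0.0024), SF3A1 (centred -0.0071, GC and length -0.0091), SF3A2 (quantile 0.0039, lane 4 0.022, without 12 h 0.068) and SF3B4 (lane 4 0.0040, without 12 h 0.0058). Centring gave -0.0013 for SF3B1 and -0.0026 for SF3A1 at 12.5 µg/ml, and the values that follow are for the same dose. Quantile normalization gave -0.0056 for SF3B1 and -0.0053 for PHF5A, and the GC and length correction -0.010 for PHF5A. Lane 4 gave -0.014 for SF3B1, 0.015 for SF3B4, 0.057 for SF3B5, -0.047 for SF3A1, 0.029 for SF3A2 and 0.038 for SF3A3. Lane 5 gave -0.0036 for SF3B1 and -0.043 for PHF5A. Without 24 h, SF3B1 was -0.024, SF3A1 -0.0077 and SF3A3 0.0047. Without 12 h, SF3B4 was 0.023, PHF5A -0.0017, SF3A2 0.050 and SF3A3 0.00053.

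After quantile normalization 1 partner, SF3B2, was called for 25 µg/ml at 24 h. What became of SF3B2 with a library left out is given with its values above. The ranges that follow come from leaving out each library in turn. SF3A2 at 25 µg/ml ranged from -0.035 to 0.033. The ranges at 12.5 µg/ml were -0.013 to 0.023 for SF3B1, -0.017 to 0.0070 for SF3B4, -0.095 to 0.014 for SF3B5, -0.028 to 0.047 for PHF5A, -0.025 to 0.032 for SF3A1, -0.020 to 0.011 for SF3A2 and -0.023 to 0.023 for SF3A3. Leaving out the only untreated 12 h library leaves no 12 h value and no mean over all times against 0.

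Over all genes, 1138 were called at 25 µg/ml over all times. The count was 2084 after the GC and length correction, 42 and 8 in lanes 4 and 5, 46 without 24 h, 488 without 12 h and 613 to 2034 without 1 library. For 12.5 µg/ml, 34 were called, against 12 centred, 231 corrected, 6 with no variance trend, 68 and 17 by lane, 2 without 24 h, 6 without 12 h and 4 to 895 without 1 library. Duplicate numbers did not pair the samples (correlations of deviations -0.18 to 0.032), and a replicate block gave 969 and 17 calls at 25 and 12.5 µg/ml and reversed SF3A1 (-0.0041) and SF3A3 (0.0046) at 12.5 µg/ml.

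Arms of 1 or 2 libraries limit each single time, and FPKM without counts gives no sampling error for low genes.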
